A study of Mus musculus with 4 samples.

Results

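The genes described here were 10 transcription factors of the dermal papilla, the cluster of mesenchymal cells in the hair bulb that instructs the epithelium to form hair. The members Sox2, Sox18, Tbx15, Tbx18, Prdm1, Trps1, Runx1, Foxd1, Twist1 and Twist2 were taken by gene symbol from a table of raw counts for 51826 genes, in which each symbol had 1 row. RNA was sequenced from dermal papilla cells (DPCs) and from dermal sheath cells (DSCs), the mesenchymal cells that wrap the follicle, at passage 3 (low passage) and at passage 9 (high passage), with 1 library in each of these 4 groups. Both cell types were grown out of vibrissal (whisker) follicles of EGFP-transgenic C57BL/6J mice aged 5 to 6 weeks and were kept in DMEM medium with serum, and the labels give the genotype of every library as WT. How many mice were pooled for a library was not given in the sources used here, so every difference below compares 2 libraries and has no replicate check, and passage cannot be told apart from anything else that differed between the cultures.

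A dermal papilla forms when dermal fibroblasts gather beneath a placode of the epidermis, and its identity is tied to transcription factors of several families. Sox2 is an HMG-box factor found in the papillae of some hair types, the T-box factors Tbx15 and Tbx18 pattern the dermis and mark papilla precursors, and Prdm1 (Blimp1) is a zinc finger repressor of early papilla precursors in the whisker. Trps1, Runx1, Foxd1 and the basic helix-loop-helix (bHLH) factors Twist1 and Twist2 act more widely in mesenchyme, and Sox18 is best known from endothelial cells. In culture, papilla cells are known to lose part of their signature as they are passaged.

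The reads of a member can be read as that member only where its sequence is its own, so the most similar stretch of the closest pair is shown first. Twist1 and Twist2 were 82.4% identical over their aligned coding sequences (621 and 483 bases), and the longest identical run was 23 bases. In GRCm38 the stretch lies at chr12:33958338-33958397 in the coding exon of Twist1, from codon 121, and at chr1:91801849-91801908 in that of Twist2, from codon 75. The 60 bases were identical at 56 positions, and the capitals mark the 4 that differ.
Twist1: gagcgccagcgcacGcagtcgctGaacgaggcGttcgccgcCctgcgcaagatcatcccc
Twist2: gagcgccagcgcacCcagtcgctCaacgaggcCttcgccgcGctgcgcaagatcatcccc
No window of 50 bases was shared by the transcripts of Twist1 and Twist2. Tbx15 and Tbx18 were 66.5% identical in coding sequence, with a longest identical run of 23 bases, and Sox2 and Sox18 were 56.6% identical, with a run of 22 bases. None of these pairs could therefore share an exact read of 50 bases or more. With other genes, Twist2 shared 45.7% of its 50-base windows, all with the antisense gene Gm29100, and Tbx18 shared 18.3%, of which 836 windows were shared with D030062O11Rik on the opposite strand and 16 with 39 other genes. Runx1 shared 57 windows (0.47%) with the antisense gene Gm26626, and the other members shared 0.

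Promoters are shown for the 4 members whose counts were furthest below passage 3 in high-passage DPCs, Tbx18, Prdm1, Foxd1 and Twist2, and for Sox2, the member that differed most between DPCs and DSCs at passage 9. RefSeq (GRCm38.p6) held promoter entries for 7 of the 10 members, 8 entries in all, and none was used for Sox18, Tbx15 and Trps1. Each sequence is the 250 bases before the RefSeq start, at chr9:87731261-87731510 on the minus strand for Tbx18, chr10:44458749-44458998 on the minus strand for Prdm1, chr13:98353995-98354244 on the plus strand for Foxd1, chr1:91801211-91801460 on the plus strand for Twist2 and chr3:34649745-34649994 on the plus strand for Sox2. Capitals mark the CCAAT box, read on either strand.
Tbx18: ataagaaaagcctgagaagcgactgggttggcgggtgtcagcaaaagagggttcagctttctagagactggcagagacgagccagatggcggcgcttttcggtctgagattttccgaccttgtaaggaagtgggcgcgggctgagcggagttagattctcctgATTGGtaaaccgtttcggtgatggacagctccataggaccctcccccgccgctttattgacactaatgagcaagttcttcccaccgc
Prdm1: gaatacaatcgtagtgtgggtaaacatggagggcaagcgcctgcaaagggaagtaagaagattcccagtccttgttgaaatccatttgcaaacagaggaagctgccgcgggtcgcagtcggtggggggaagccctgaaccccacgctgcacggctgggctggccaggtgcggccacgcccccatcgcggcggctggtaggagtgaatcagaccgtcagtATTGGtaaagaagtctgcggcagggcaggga
Foxd1: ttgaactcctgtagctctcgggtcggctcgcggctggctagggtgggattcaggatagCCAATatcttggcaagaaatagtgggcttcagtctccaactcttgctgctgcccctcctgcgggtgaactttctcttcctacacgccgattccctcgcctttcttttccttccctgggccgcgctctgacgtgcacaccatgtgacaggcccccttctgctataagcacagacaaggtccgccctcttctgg
Twist2: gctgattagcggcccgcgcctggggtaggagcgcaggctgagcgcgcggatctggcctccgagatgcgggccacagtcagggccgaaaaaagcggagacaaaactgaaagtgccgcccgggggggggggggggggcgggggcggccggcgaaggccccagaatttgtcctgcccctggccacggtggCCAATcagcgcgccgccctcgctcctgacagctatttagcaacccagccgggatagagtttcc
Sox2: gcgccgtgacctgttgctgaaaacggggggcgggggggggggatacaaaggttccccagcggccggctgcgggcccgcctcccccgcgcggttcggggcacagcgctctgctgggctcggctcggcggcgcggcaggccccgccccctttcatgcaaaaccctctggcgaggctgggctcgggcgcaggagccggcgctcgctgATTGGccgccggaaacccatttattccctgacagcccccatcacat
A CCAAT box was present in 8 of 8 member windows, against 33.8% of all 32851 promoters of the same length. The E-box CANNTG, the core letters read by Twist and other bHLH dimers, was present in 4 of 8 windows against 66.2% of all promoters. It occurred once in Tbx18 (CAGATG), at 2 places in Prdm1 (CATTTG and CAGGTG) and once in Foxd1 (CATGTG), and was not found in the Twist2 or Sox2 window. The letters GAAAGT, the core of Prdm1 sites, were in 4 of 8 windows (12.3% of all promoters), including those of Foxd1 and Twist2. Of the other letters searched on both strands, ACAAAG (Sox factors, 16.5% of all promoters), TAAACA (Fox factors, 12.0%) and TATAAA (the TATA box, 12.4%) were each in 1 window. CTTTGA (13.8%), TGTGGT (14.0%), AGATAA (9.99%) and GTGTGA (12.3%) were in none. A match is a description of letters and was not tested as a site.

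Totals lay between 34981284 and 47604059 counts per library, and 16734 genes averaged 10 or more raw counts per library and were tested, 9 of the 10 members among them. Levels are given as counts, as counts scaled to a common library size (CPM) with the TMM method, and, where genes are compared with each other, as the deposited FPKM, which is scaled by transcript length. Intervals are exact Clopper-Pearson 95% intervals on the log2 scale and cover counting error only. The summed CPM of 12 dermal papilla markers was 457 and 395 in low- and high-passage DPCs and 822 and 1038 in the same passages of DSCs. The sum was thus not higher in the libraries labelled DPCs, but single markers went both ways. At low passage Fgf10, Rspo3, Lef1 and Lepr were higher in DPCs, and Fgf7, Bmp4, Ncam1, Nog, Vcan, Hhip and Alpl were lower. At high passage Rspo3, Nog, Vcan, Alpl and Lepr were higher in DPCs, and Fgf10, Fgf7, Lef1, Bmp4, Ncam1, Corin and Hhip were lower. Alpl, the alkaline phosphatase that stains papillae, had at most 23 counts in any library, and Corin was at 0 in both passage 3 libraries. Dermal sheath markers, among them Acta2 (smooth muscle actin), summed to 10126 and 3768 CPM in DPCs and to 8313 and 7499 CPM in DSCs.

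The first question was how strongly each factor was expressed in the 4 libraries. By FPKM, Tbx15 was the most abundant member in 3 libraries, at 85.0 in DPCs at passage 9 and at 106 and 75.8 in DSCs at passages 3 and 9. In low-passage DPCs it came second, at 48.8 FPKM, behind Tbx18 at 72.5 FPKM. Twist1 ranged from 20.2 to 32.1 FPKM and Twist2 from 19.9 to 40.1 FPKM, so both bHLH factors stayed in the upper part of the members' range in every library. Sox2 stood at 20.4 and 18.4 FPKM in DPCs and at 2.98 and 1.60 FPKM in DSCs. Trps1 (7.74 to 13.1 FPKM) and Runx1 (5.67 to 10.1 FPKM) ranked between 5 and 8 among the members in every library, and Prdm1 was the lowest of the 9, with 3.74 FPKM in low-passage DPCs and 0.183 to 0.451 FPKM elsewhere. Some neighbours in this order were nearly level, as were Sox2 and Tbx18 in high-passage DPCs (18.4 FPKM each) and Twist1 and Twist2 in low-passage DSCs (20.2 and 19.9 FPKM), and no spread over replicates was available to separate them.

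**Figure D1:**
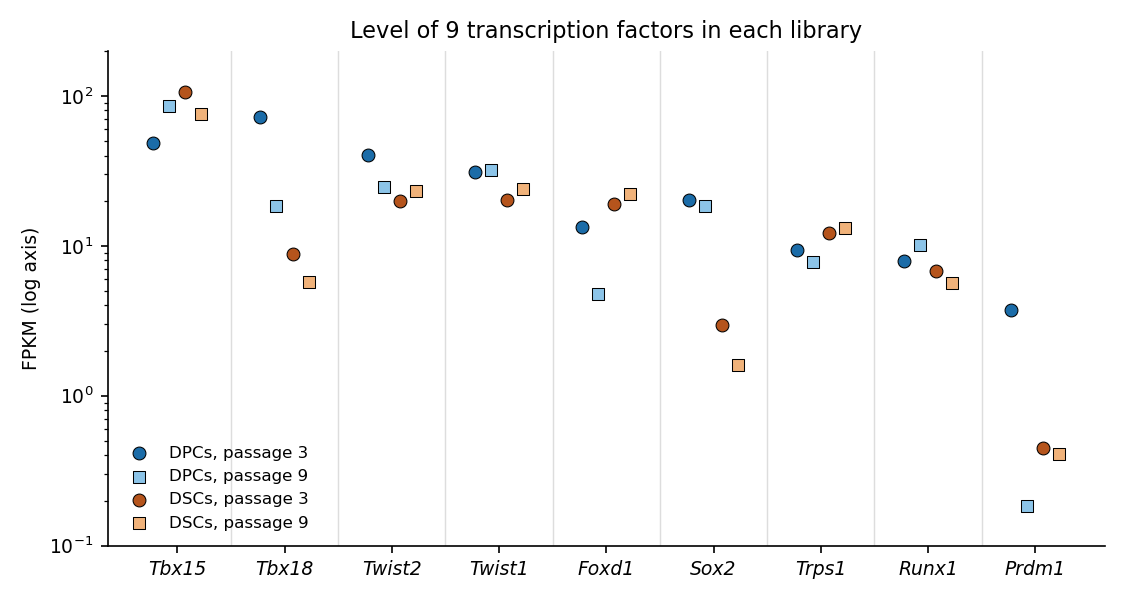
FPKM (log axis) of the 9 members that averaged 10 or more raw counts, with 1 point per library, in order of their highest value; Sox18 is left out because it is listed at 0 in 1 library. Tbx18 and Prdm1 are highest in low-passage DPCs (72.5 and 3.74 FPKM), Sox2 is higher in both DPC libraries than in both DSC libraries, and Foxd1 is lowest in high-passage DPCs (4.78 FPKM).

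Sox18, an HMG-box factor of blood and lymphatic endothelium whose mutation disturbs hair growth in ragged mice, was at or near 0 in every library. It had 0 counts in DPCs at passage 3 and 6 at passage 9, and 4 and 4 counts in DSCs at the same passages. A count of 0 allows up to 3 counts, or 0.0816 CPM in that library. With the 6 counts taken as exact, DPCs at passage 9 were then 2.05-fold or more above DPCs at passage 3. The counting interval of this difference started lower, at log2 0.27. The interval of that difference excluded 0, but it included 0 once counts were halved, which applies if both reads of a pair were counted. In the other 3 comparisons no difference was detectable at this depth. The gene lies at chr2:181669836-181671640 on the minus strand. The 8 endothelial markers summed to 2.91 and 4.21 CPM in DPCs and to 6.94 and 1.69 CPM in DSCs. Cdh5 had 16 and 45 counts in DPCs and DSCs at passage 3 and 0 in both passage 9 libraries, Tek had 59 and 114 counts at passage 3, and Erg had 147 counts in DPCs at passage 9. Lymphatic markers summed to 118 to 222 CPM over 4 genes, mostly from Pdpn, which fibroblasts also express, and Lyve1 had at most 11 counts.

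Sox2, which lies at chr3:34650405-34652461 and keeps progenitor programmes active, had 1677 counts in DPCs at passage 3 and 1491 at passage 9, and 269 and 178 counts in DSCs at the same passages. The DPC libraries stood well above the DSC libraries at both passages. In CPM the difference was 6.39-fold at passage 3 (log2 2.67, interval 2.50 to 2.87) and 10.5-fold at passage 9 (log2 3.39, 3.19 to 3.64). Between passages it was nearly level in DPCs (log2 -0.13, -0.23 to -0.03, an interval that includes 0 with halved counts) and lower at passage 9 in DSCs (log2 -0.85, -1.14 to -0.58). Sox2 is also known from Schwann, Merkel and melanocyte lineages. Schwann cell markers summed over 9 genes to 15.8, 6.36, 38.3 and 10.9 CPM in low- and high-passage DPCs and low- and high-passage DSCs, and Sox10, Ngfr, Cdh19 and Foxd3 were at 0 in both passage 9 libraries. The Schwann sum was thus higher in DSCs than in DPCs at each passage, the reverse of Sox2, while it was lower at passage 9 in DSCs, as Sox2 was. The part of Schwann cells in the DSC values was not tested. Of 5 Merkel cell markers, Atoh1, Isl1, Krt20 and Krt8 were at 0 in all libraries, and the sum of 23.4, 0.056, 65.3 and 8.34 CPM in the same order was all Piezo2, a mechanosensitive channel with 859, 2, 2474 and 380 counts. Of 7 melanocyte markers, Dct, Tyr, Mlana and Tyrp1 were at 0 in all libraries, and the sum of 11.2, 28.3, 12.4 and 13.0 CPM came mostly from Mitf. The part of these cells in the Sox2 values was not tested either. In bulk RNA, fewer cells that express a gene and less RNA per cell cannot be told apart. Sox2ot, the long noncoding gene in whose span Sox2 lies, had no exon over Sox2 and only 39, 97, 18 and 6 counts in the same order.

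Tbx18, a T-box factor of the early papilla and of other mesenchyme, lies at chr9:87702800-87731260 on the minus strand. It had 13516 counts in DPCs at passage 3 and 3312 at passage 9, and 1810 and 1445 counts in DSCs at the same passages. Low-passage DPCs stood apart from the other libraries, and the DPC libraries were above the DSC libraries at both passages. The DPC to DSC difference was 7.69-fold at passage 3 (log2 2.94, 2.87 to 3.02) and 2.91-fold at passage 9 (log2 1.54, 1.45 to 1.63). From passage 3 to 9, the difference was log2 -1.99 in DPCs (-2.05 to -1.94), just inside a 4-fold limit, and log2 -0.59 in DSCs (-0.69 to -0.49). An unclassified transcript on the other strand, D030062O11Rik, shared 970 bases with the exons of Tbx18, 20.6% of them, and has an exon in its promoter window. Its counts were 607, 234, 152 and 110, with a passage difference of log2 -1.33 in DPCs and -0.72 in DSCs. Whether the counting used strand was not given in the sources used here, so reads of the shared bases cannot be told apart. D030062O11Rik had between 4.49% and 8.40% of the counts of Tbx18. This share does not measure the reads of the shared bases, whose part in the Tbx18 values was not tested.

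Tbx15, a T-box factor of the dorsal dermis at chr3:99240381-99354259, had another order of libraries than Tbx18. It had 6815 counts in DPCs at passage 3 and 11547 at passage 9, and 16032 and 14134 counts in DSCs at the same passages. Low-passage DPCs were the lowest library here. Passage 9 was 1.74-fold above passage 3 in DPCs (log2 0.80, 0.75 to 0.84) and below it in DSCs (log2 -0.45, -0.48 to -0.41). The DPC to DSC difference was log2 -1.19 at passage 3 (-1.23 to -1.15) and log2 0.05 at passage 9 (0.02 to 0.09), so the cell types were almost level at high passage.

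Prdm1, the repressor Blimp1, had the widest difference between passages of any member. It lies at chr10:44437177-44528501 on the minus strand and had 630 counts in DPCs at passage 3 and 38 at passage 9, and 105 and 116 counts in DSCs at the same passages. Its level in DPCs was 17.1 CPM at passage 3 and 1.06 CPM at passage 9, a 15.5-fold difference (log2 -3.95, -4.53 to -3.54), while DSCs had 2.77 and 2.55 CPM (log2 -0.12, -0.51 to 0.27). DPCs were 6.09-fold above DSCs at passage 3 (log2 2.61, 2.33 to 2.94) and below them at passage 9 (log2 -1.23, -1.83 to -0.73). Prdm1 is also expressed in immune cells. The summed CPM of 8 immune markers was 119 and 65.1 in DPCs and 170 and 94.4 in DSCs, with Cd3e at 0 in all libraries. Most of it was Lyz2, at 92.3 and 54.7 CPM in DPCs and 131 and 78.3 CPM in DSCs. The immune sum, like Prdm1, was lower at passage 9 in DPCs and was higher in DSCs than in DPCs at passage 9. Among the markers with counts, Ptprc (0.613 against 0.395 CPM) and Spi1 (0.753 against 0.681 CPM) were instead higher in DPCs at passage 9. The immune sum thus rested mostly on 1 gene. It was also lower at passage 9 in DSCs, where Prdm1 was nearly level, and at passage 3 it was higher in DSCs, where Prdm1 was lower. The part of immune cells in the Prdm1 values was not tested. On the FPKM scale with a pseudocount of 1, which damps low values, the passage difference of Prdm1 in DPCs was log2 -2.001, and the DPC to DSC difference was log2 1.71 at passage 3 and -0.25 at passage 9.

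Foxd1, a forkhead factor of condensing mesenchyme at chr13:98354242-98356703, was lowest in high-passage DPCs and highest in high-passage DSCs. It had 1325 counts in DPCs at passage 3 and 463 at passage 9, and 2044 and 2940 counts in DSCs at the same passages. The passage difference was log2 -1.48 in DPCs (-1.64 to -1.33) and log2 0.26 in DSCs (0.18 to 0.34). The DPCs lay below DSCs at passage 3 (log2 -0.58, -0.68 to -0.48) and 4.98-fold below them at passage 9 (log2 -2.32, -2.47 to -2.18).

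The bHLH factors Twist1 and Twist2 hold mesenchymal cells in their state, and they differed in pattern. Twist1, at chr12:33957671-33959829, had 2028, 2051, 1442 and 2101 counts in low- and high-passage DPCs and low- and high-passage DSCs. Its passage difference was log2 0.05 in DPCs (-0.04 to 0.14) and log2 0.28 in DSCs (0.18 to 0.38), and its interval in DPCs included 0. Twist2, at chr1:91801461-91848028, had 2616, 1286, 1441 and 1682 counts in the same order, so low-passage DPCs stood above 3 similar libraries. Its passage difference was log2 -0.99 in DPCs (-1.09 to -0.89) and log2 -0.04 in DSCs (-0.14 to 0.06). The DPC to DSC difference of Twist2 was log2 0.90 at passage 3 (0.81 to 1.00) and log2 -0.04 at passage 9 (-0.15 to 0.06).

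Twist2 overlaps an antisense gene, Gm29100, over 1477 exonic bases, 46.5% of its own. Gm29100 had 1003 and 318 counts in DPCs and 607 and 134 in DSCs, so it was lower at passage 9 in both cell types, by log2 -1.62 in DPCs and -2.42 in DSCs. The length that the deposited FPKM implies for Twist2 was taken from counts scaled by the library total, without TMM, over FPKM. It was 1845 and 1866 bases in the passage 3 libraries and 1501 and 1514 bases in the passage 9 libraries. The 2 annotated transcripts have 1329 and 2525 bases, but the scales cannot be compared directly. Sox2 and Twist1, each with 1 transcript (2057 and 1628 bases), had implied lengths of 2312 to 2331 and 1828 to 1844 bases. Only the shift between libraries is therefore read here. A shift of this size or larger was found in 13.6% of 10996 genes with at least 100 counts in every library. On the FPKM scale with a pseudocount of 0.1, the Twist2 passage difference was accordingly smaller in DPCs, at log2 -0.71, and positive in DSCs, at log2 0.23. The part of Gm29100 reads and of transcript choice in the Twist2 values was not tested.

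**Figure D2:**
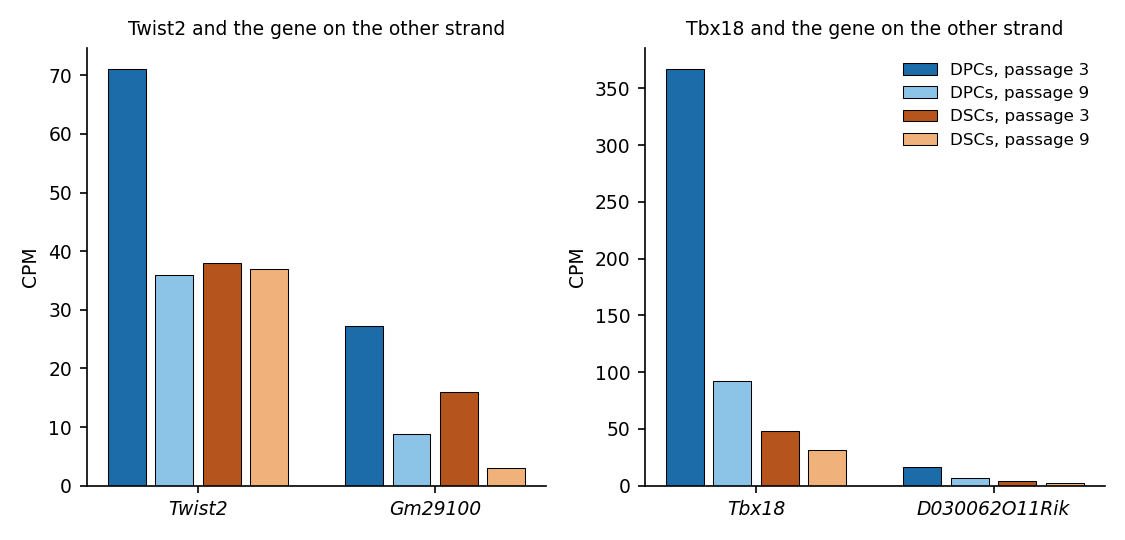
CPM (linear axis from 0, a separate scale in each panel) of Twist2 and Tbx18 and of the gene that overlaps each on the opposite strand, with 1 bar per library and no error bars, as there were no replicates. Gm29100 is lower at passage 9 in both cell types, whereas Twist2 is lower at passage 9 in DPCs only (35.9 against 71.1 CPM) and is nearly level in DSCs; D030062O11Rik follows the order of Tbx18 at a much lower level.

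Trps1 and Runx1 differed little among the libraries. Trps1, a GATA-type repressor whose loss gives sparse hair, lies at chr15:50654752-50890463 on the minus strand and had 2696 and 2164 counts in DPCs and 3578 and 4551 in DSCs. Its passage difference was log2 -0.28 in DPCs (-0.36 to -0.20) and 0.08 in DSCs (0.02 to 0.15), and DPCs were below DSCs by log2 -0.36 at passage 3 and -0.73 at passage 9. Runx1, a Runt domain factor that acts in both the epithelium and mesenchyme of hair, lies at chr16:92601466-92826149 on the minus strand and had 1724, 2062, 1480 and 1650 counts. Its passage difference was log2 0.29 in DPCs (0.20 to 0.39) and -0.11 in DSCs (-0.21 to -0.01), and DPCs were above DSCs by log2 0.26 at passage 3 and 0.67 at passage 9. Each of these differences was under 2-fold. Runx1 is also known from hair epithelium, and 8 keratinocyte markers summed to 3.37 to 6.28 CPM, with Krt5, Krt14, Krt15 and Cdh1 at 0 in all libraries and Sfn at 74 to 189 counts. Their part in the Runx1 values was not tested.

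Set side by side, more members passed a 2-fold difference between passages in DPCs than in DSCs, as was so for all tested genes. In DPCs, 0 of 9 members were at least 4-fold higher at passage 9 (5.58% of all tested genes) and 1, Prdm1, was at least 4-fold lower (4.36% of all). At 2-fold in either direction, 3 of 9 members passed, Foxd1, Tbx18 and Prdm1, which is 33.3% against 31.1% of all genes, so this share was near the background. The median over the members was log2 -0.28, and 0.03 over all tested genes. In DSCs, 0 of 9 members passed any of these limits, against 2.67% of genes 4-fold higher, 1.16% 4-fold lower and 14.8% at 2-fold, and the median was log2 -0.11 for the members and 0.00 for all genes. The comparisons in DPCs and in DSCs share no library.

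**Figure D3:**
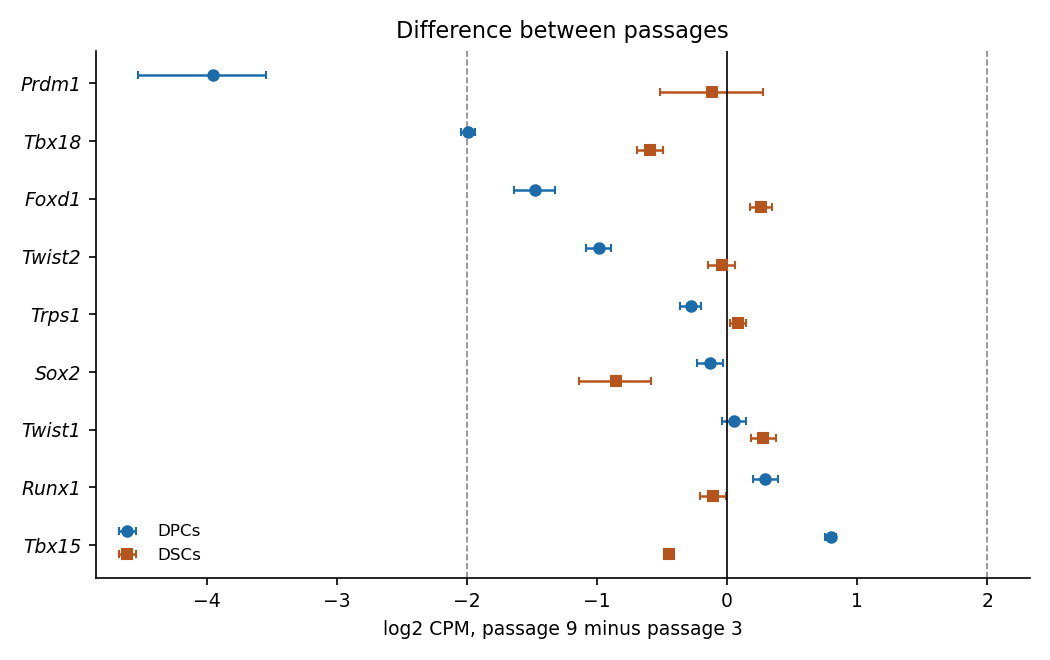
Passage 9 minus passage 3 in log2 CPM for the 9 members in DPCs (circles) and DSCs (squares), 1 library per group; bars are 95% Clopper-Pearson intervals for counting error only and dashed lines mark 4-fold. Prdm1, Tbx18, Foxd1 and Twist2 lie between -3.95 and -0.99 in DPCs, and every DSC value lies between -0.85 and 0.28.

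Between the cell types, Sox2 alone was past 4-fold at both passages. At passage 3, 3 of 9 members, Sox2, Tbx18 and Prdm1, were at least 4-fold higher in DPCs (1.52% of all genes) and 0 were 4-fold lower (2.77% of all). At 2-fold, 4 of 9 passed (13.3% of all), the fourth being Tbx15 with the opposite sign. The members' median was log2 0.53 and that of all genes 0.00. At passage 9, 1 of 9 members, Sox2, was at least 4-fold higher in DPCs (2.5% of all), 1, Foxd1, was at least 4-fold lower (3.91%), and 4 of 9, with Tbx18 and Prdm1, passed 2-fold (20.1%). The median was then log2 0.05 for the members and -0.01 for all genes. The members are papilla factors by choice, so a higher level in DPCs is not independent evidence about the cells.

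**Figure D4:**
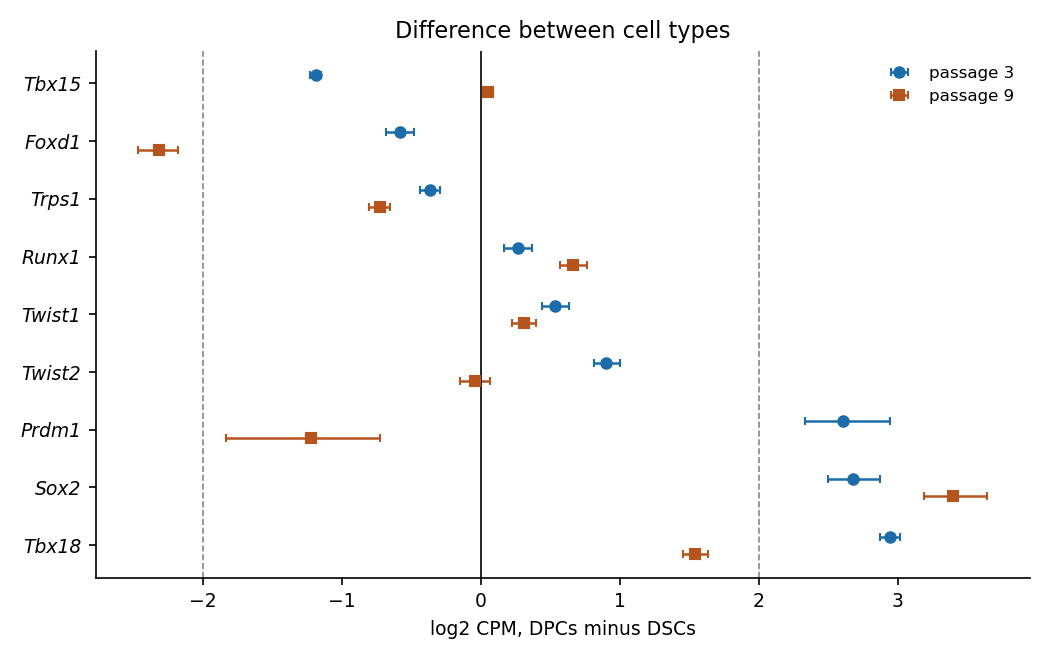
DPCs minus DSCs in log2 CPM for the 9 members at passage 3 (circles) and passage 9 (squares), with the same intervals and 4-fold lines, 1 library per group. Sox2 lies beyond 4-fold at both passages (2.67 and 3.39), Prdm1 goes from 2.61 to -1.23, and Foxd1 goes from -0.58 to -2.32.

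Across all 4 libraries edgeR's quasi-likelihood test was run on a model of cell type plus passage, which leaves 1 residual degree of freedom, namely how unlike the passage differences of DPCs and DSCs were. After Benjamini-Hochberg adjustment over all genes, 0 of 9 members and 0% of all genes were called for passage or for cell type, and 2822 and 1381 genes had an unadjusted p under 0.05. By edgeR, Sox2 had a cell type difference of log2 3.04 (higher in DPCs at both passages) with an adjusted p of 0.115, and Tbx18 one of log2 2.24 with an adjusted p of 0.221. For passage, edgeR gave Tbx18 log2 -1.29 (lower in both cell types) with an adjusted p of 0.249 and Prdm1 log2 -2.04 with an adjusted p of 0.398. The remaining edgeR adjusted p-values of the members, for either effect, lay between 0.428 and 0.989. DESeq2's Wald test, fitted to the same counts, called 5.76% of genes for passage, Tbx18 among them (adjusted p = 0.0275), and 2.95% for cell type, with Sox2 (adjusted p = 8.94e-12) and Tbx18 (adjusted p = 4.77e-06).

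The genes whose pattern was most like a member's were sought for the 4 members that span 4-fold or more, by the root mean square difference of log2 CPM centred over the 4 libraries, among 12191 genes. Nearest to Sox2 were Scube3, a secreted signalling protein (difference 0.20), and Zfp180 (0.28). Nearest to Tbx18 were Kif26b (0.14) and Il2rg (0.21). Those nearest to Prdm1 were AC034099.1 (0.32) and Mycl (0.38), and those nearest to Foxd1 were Papss2 (0.09) and Tmem154 (0.11). For scale, Sox2 and Tbx18 differed from each other by 0.77, and Prdm1 and Foxd1 by 1.39. With 4 libraries such likeness is a description of shape only.

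Related factors place these values among their families. Of 25 tested other transcription factors of papilla and skin mesenchyme, 1 was at least 4-fold higher at passage 9 in DPCs (En1, 67 and 277 counts) and 4 were 4-fold lower, and their median was log2 0.05. In DSCs 0 were 4-fold higher and 1 was 4-fold lower, with a median of log2 0.03. Of all tested genes, 5.58% were 4-fold higher and 4.36% lower in DPCs, and 2.67% and 1.16% in DSCs. These shares are the background for this list and for those that follow. Tcf7, a relative of Lef1, had 142 and 26 counts in DPCs. Lef1, the transcription factor through which Wnt signals act in the papilla, went from 508 to 2 counts in DPCs (a CPM ratio of 248, counting interval 68.2 to 2051) and from 101 to 55 counts in DSCs. The Notch targets Heyl and Hey1 were also lower in DPCs, Heyl at 94 and 0 counts and Hey1 at 85 and 6 counts. From a floor of 3 counts per library, with the larger count taken as exact, Heyl was 30.6-fold or more lower. Its counting interval reached log2 -4.61. In DSCs, Heyl was at 30 and 0 counts, 12.0-fold or more lower on the same basis, with an interval that reached log2 -3.20. Among 8 other Sox genes, 0 were 4-fold higher and 1, Sox10, was 4-fold lower in DPCs (28 and 0 counts). On the same basis it was 9.10-fold or more lower, with a counting interval that reached log2 -2.79. In DSCs 2 were 4-fold lower, Sox10 (116 and 0 counts) and Sox8 (134 and 30 counts). Sox10 is also one of the Schwann cell markers. Sox6 had 50 and 14 counts in DSCs.

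Of 7 tested T-box genes, Tbx20 was 4-fold higher in DPCs (0 and 21 counts) and in DSCs (0 and 39 counts). From the floor of 3 counts, with the larger count taken as exact, it was 7.18-fold or more and 10.8-fold or more higher. The counting intervals of these differences started lower, at log2 2.42 in DPCs and log2 3.07 in DSCs. Tbx4 went from 52 to 8 counts in DPCs, and Tbx6 went from 14 to 50 counts in DPCs. Among 11 other Prdm genes, Prdm8 was 4-fold higher in DPCs (6 and 56 counts) and Prdm6 4-fold lower (22 and 0 counts), and Mecom was 2-fold or more higher in both cell types (log2 1.18 in DPCs and 1.37 in DSCs). Between passages, the 7 Runx partners and relatives had 0 genes past 4-fold in either cell type, and the 2 tested GATA genes, Gata2 and Gata3, likewise had 0. Runx3 stood at log2 -1.13 in DPCs and Gata2 at log2 1.21 in DPCs and 1.71 in DSCs. Of 10 tested Fox genes, Foxl2 (10 and 315 counts) and Foxq1 (7 and 56 counts) were 4-fold higher in DPCs, and Foxs1 (1260 and 136 counts) and Foxd3 (24 and 0 counts), a neural crest factor, were 4-fold lower. The member Foxd1 lay between these relatives, at log2 -1.48, and in DSCs 0 Fox genes were 4-fold higher and 1, Foxd3, was 4-fold lower. The median passage differences in DPCs and DSCs were log2 -0.19 and -0.40 for the Sox list, 0.69 and -0.08 for T-box genes, 0.19 and 0.01 for Prdm genes, -0.26 and -0.03 for the Runx list, 1.03 and 0.77 for GATA genes and 0.34 and 0.67 for Fox genes, beside 0.03 and 0.00 for all tested genes.

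The bHLH partners and antagonists of Twist, 7 tested genes, had 0 past 4-fold in either cell type, with medians of log2 0.46 in DPCs and 0.30 in DSCs. In DPCs Tcf4, a dimer partner, was at log2 1.83, and the antagonists Id2 and Id4 were at log2 1.56 and -1.58, beside log2 0.05 for Twist1 itself. Among 4 other factors of epithelial-mesenchymal transition, Zeb1 was at log2 1.48, Snai1 at -1.22 and Snai2 at -0.55 in DPCs, and 0 passed 4-fold. Of 7 tested genes known to be controlled by or paired with members, Vcam1, a target of Sox18 in endothelium, was the only one past 4-fold, at log2 -2.72 in DPCs, and Postn and Fgfr2, linked to Twist1, were at log2 -1.69 and -1.14. This last list had a median of log2 -1.11 in DPCs and -0.18 in DSCs.

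**Figure D5:**
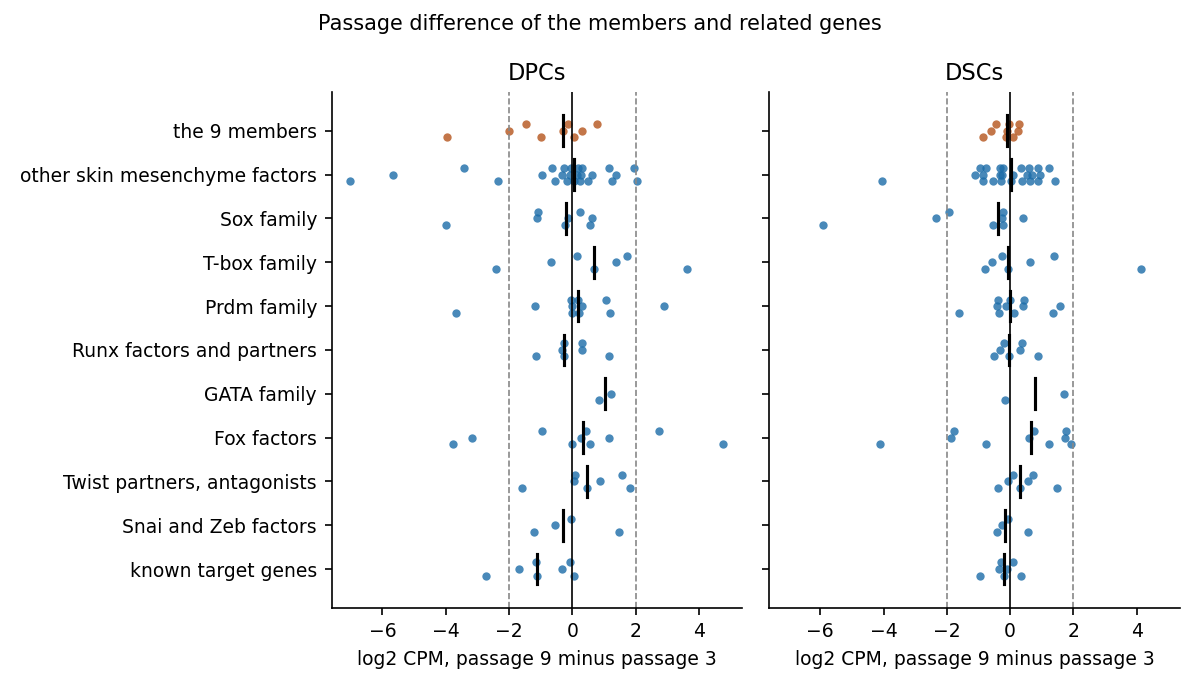
Passage 9 minus passage 3 in log2 CPM for each tested gene of the members (top row) and of 10 lists of related genes in DPCs and DSCs, 1 library per group; black bars are medians, dashed lines mark 4-fold, and points have no error bars. The members span -3.95 to 0.80 in DPCs and -0.85 to 0.28 in DSCs, and Lef1 in DPCs (508 and 2 counts) is the farthest point to the left, where its place depends on the prior count of 2.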

How the data were processed

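RNA of 4 libraries of cultured mouse cells (DPCs and DSCs at passages 3 and 9, 1 library each, grouped by their titles) was analysed. The authors deposited raw counts per gene, whole numbers without normalization, and FPKM per gene, which the authors scaled by transcript length and depth. The submitters' processing notes name Bowtie 0.12.2 and the builds mm8 and mm9 without a role, while the deposited positions of 9 of the 10 members are identical to GENCODE M21 on GRCm38. Foxd1 has the same start, but ends at 98356703 in the deposited table and at 98359305 in GENCODE. The counting program and its use of strand are not given in the sources used here. The labels name a TruSeq kit, and the study's methods an NEBNext kit with poly-T selection and paired-end sequencing.

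Genes averaging 10 or more raw counts over the libraries were kept and scaled with TMM in edgeR 4.0.16 (R 4.3.3), and differences were taken on log2 CPM (prior count 2). Totals of 34981284 to 47604059 counts set the floor of 3 counts at 0.0659 to 0.0837 CPM. Intervals (scipy 1.17.1) and floors cover counting error only, and a lower bound on a fold takes the larger count as exact. If both mates of a pair were counted, the floor is 6 counts and the lower bounds on folds halve. The additive model used edgeR's quasi-likelihood test with Benjamini-Hochberg adjustment, with DESeq2 1.42.0 as the alternative. It was also run on simulated counts with a lower dispersion than these data and the same passage effect in both cell types. That run checked the recovery of simulated fold changes only, so it does not show how the test performs on these data. Exon overlaps, transcript lengths and coding identity (Biopython 1.88) came from GENCODE M21 and promoters from RefSeq.

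All members were named with their values in every library. Other genes named were, in each list, up to 3 with the largest passage difference, further list members at least 4-fold different, markers of other cell types, genes that overlap a member, and for each member spanning 4-fold or more the 2 genes most like it. Members and lists were chosen with earlier results of these data known. Other scalings, filters, prior counts, halved counts and FPKM with pseudocounts of 0.1 and 1 were tried.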

Additional observations from a re-analysis of the deposited data

Results flagged for a closer look

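Some members lay on opposite sides of 0 in comparisons of the same kind, each between 2 libraries, and none of these differences was tested. The passage difference in DPCs and in DSCs was log2 0.80 and -0.45 for Tbx15, log2 -1.48 and 0.26 for Foxd1, log2 -0.28 and 0.082 for Trps1, and log2 0.29 and -0.11 for Runx1. With counts halved, the DSC intervals of Trps1 and Runx1 included 0. The DPC to DSC difference, first at passage 3 and then at passage 9, was log2 2.61 and -1.23 for Prdm1 and log2 -1.19 and 0.053 for Tbx15.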

How the results depend on the processing

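Of 36 differences of members, 34 kept their sign under every alternative scaling, filter, prior count, halving of counts and FPKM pseudocount tried, and 22 moved beyond their counting interval in at least 1 of them. The 2 that changed sign were the passage difference of Twist2 in DSCs (log2 0.23 on FPKM with a pseudocount of 0.1) and its DPC to DSC difference at passage 9 (log2 0.07 on the same scale). With halved counts, 29 of 32 intervals that excluded 0 still did so, the exceptions being the passage differences of Sox2 in DPCs and of Trps1 and Runx1 in DSCs. Members past 4-fold between passages in DPCs numbered 2 with scaling by total counts, where Tbx18 joined Prdm1, and 3 with no filter on low counts, where Sox18 with 0 and 6 counts also passed, and 3 at a 2-fold limit. Members past the limit between cell types at passage 9 numbered 4 at 2-fold. At passage 3, members past 4-fold between cell types numbered 2 instead of 3 on FPKM with a pseudocount of 1, where Prdm1 was at log2 1.71. For passage, DESeq2's Wald test called 964 genes and edgeR 0, and for cell type 494 and 0. For cell type, edgeR called 5 genes with DESeq2's size factors and 13 when only genes averaging 100 or more raw counts were tested, with 0 members in each. The cause of these differences was not tested. No paired analysis was possible because each group had 1 library and no label pairs cultures, and the model of cell type plus passage sets whole groups side by side. Leaving out a library would leave a comparison without one of its sides, so none was left out.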
